A study of Rattus norvegicus with 29 samples.

Results

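Blood mononuclear cells of 5 male Wistar rats that had gone 14 h without food were compared with those of 4 male Wistar rats that ate freely. All 9 rats were 6 months old and had eaten standard chow only for the preceding 4 months. The arrays were chosen by their titles, which give the feeding state, the diet and the rat number, and they are 9 of the 29 arrays of the study. The fasted animals were rats 2, 5, 8, 11 and 14, and the fed animals were rats 1, 4, 7 and 13. The other 20 arrays held control rats that were fasted for 14 h and then had food for 6 h (refed, 5 rats), and fed, fasted and refed rats given a fatty, energy-dense cafeteria diet beside chow for 4 months (5 rats each). Each array carried the RNA of 1 rat in Cy5 against a common Cy3 pool of all groups, and every level below is the log2 ratio of rat over pool.

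Mononuclear cells, the lymphocytes and monocytes that a density gradient separates from red cells and granulocytes, are a mixture and not a single cell type. During a fast, insulin falls and glucocorticoids and circulating fatty acids rise, and metabolic tissues turn from making lipid to burning it. Lymphocytes also redistribute between blood and bone marrow under glucocorticoids, so that blood cells can differ with feeding both in their make-up and in their transcripts. In such bulk samples, fewer cells of a type and less RNA per cell cannot be told apart.

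Of 41012 probes, 28242 were well above background in Cy5 on at least 4 of the 29 arrays, and they represented 24277 genes, 11299 of them with a symbol. The median Cy5 intensity was 108.1 to 142.6 units on fasted and 106.5 to 142.9 units on fed arrays, over a local background of 51 to 54 units. Probes well above background made up 60.55% to 64.68% on fasted and 59.10% to 66.70% on fed arrays. All 18 T cell markers and all 11 B cell markers on the array were well above background on all 9 arrays, as were 14 of 15 markers of natural killer and cytotoxic cells and 17 of 20 monocyte markers, with C1qa and Cd163 above it on none. Of 17 neutrophil markers, 10 were above background on all 9 arrays, and Ctsg and Mpo on none. Platelet markers were also present, at 18 of 20 on all 9 arrays.

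The comparison asks which transcripts of these cells differ after a night without food. The largest fall among called genes was that of Bcl6, a transcriptional repressor needed for germinal centre B cells and follicular helper T cells. Cebpd, a transcription factor of the C/EBP family that acts in myeloid cells and inflammation, also fell, as did Scd2, which places a double bond in fatty acids, and Tlr6, a receptor for bacterial lipopeptides. Tent5c, which lengthens the poly(A) tails of messenger RNAs, Adam9, a membrane metalloprotease, and Dusp15, a phosphatase, rose. Of 24277 genes, 43 were called at an adjusted p under 0.05 (0.177%), of which 25 fell (0.103%) and 18 rose (0.0741%). A symbol was known for 17 of the falls and 7 of the rises. The others are probes without a symbol, each counted here as a gene, and some may belong to a gene already counted.

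Over all genes the median log2 change was 0.0043, and 51.55% of the genes lay above 0. The median standard error of a change was 0.085. An unadjusted p under 0.05 was reached by 2812 genes (11.6%). Among the called genes, the falls had a median log2 change of -0.50 and the rises one of 0.47. Changes of 1 log2 unit or more were measured for 27 genes, of which 1, Bcl6, was called. All 5 fasted rats lay below all 4 fed rats in each of the 25 falls, against 2.43% of all genes, and above them in each of the 18 rises, against 2.31%. The call and this separation rest on the same arrays.

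Bcl6 had log2 ratios of -0.82, -0.70, -0.63, -0.60 and -0.78 in fasted rats 2, 5, 8, 11 and 14, against 0.21, 0.62, 0.41 and 0.14 in fed rats 1, 4, 7 and 13. Every fasted rat lay below the pool and every fed rat above it. The change was -1.05 ± 0.16 (SE; adjusted p = 0.00407, limma), a 2.07-fold fall. The mean Cy5 intensity of this probe was 9689 units in fasted and 19450 units in fed rats. Another Bcl6 probe on the array changed by -0.47, in the same direction and by less. A called fall without a symbol (-0.33) lies next to the Bcl6 probe described here. In rn4 coordinates it spans bases 79030390 to 79030449 of chromosome 11, and the Bcl6 probe spans 79030469 to 79030528. The count of falls may therefore hold the same locus more than once.

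Cebpd had log2 ratios of -0.82, -0.67, -0.42, -0.63 and -0.66 in fasted rats, against 0.12, 0.48, 0.28 and -0.10 in fed rats, in the same order of rats. The groups were separated by a gap between fasted rat 8 and fed rat 13. The change was -0.84 ± 0.17 (adjusted p = 0.0446). Bcl6 and Cebpd were the called members of a list of 20 measured repressors and C/EBP factors, of which 13 had a change below 0 and whose median was -0.039. That list was chosen with the Bcl6 result known and is not independent evidence of its direction. Id3, a repressor of E-protein transcription factors in lymphocytes, had a change of -0.89 ± 0.21 (adjusted p = 0.0606) and non-overlapping groups, and 2 further probes of it gave -0.78 and -0.72. Prdm1, which encodes the repressor Blimp-1 of plasma cells and a known opponent of Bcl6, had a change of 0.53 ± 0.23 (adjusted p = 0.357) with overlapping groups.

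**Figure D1:**
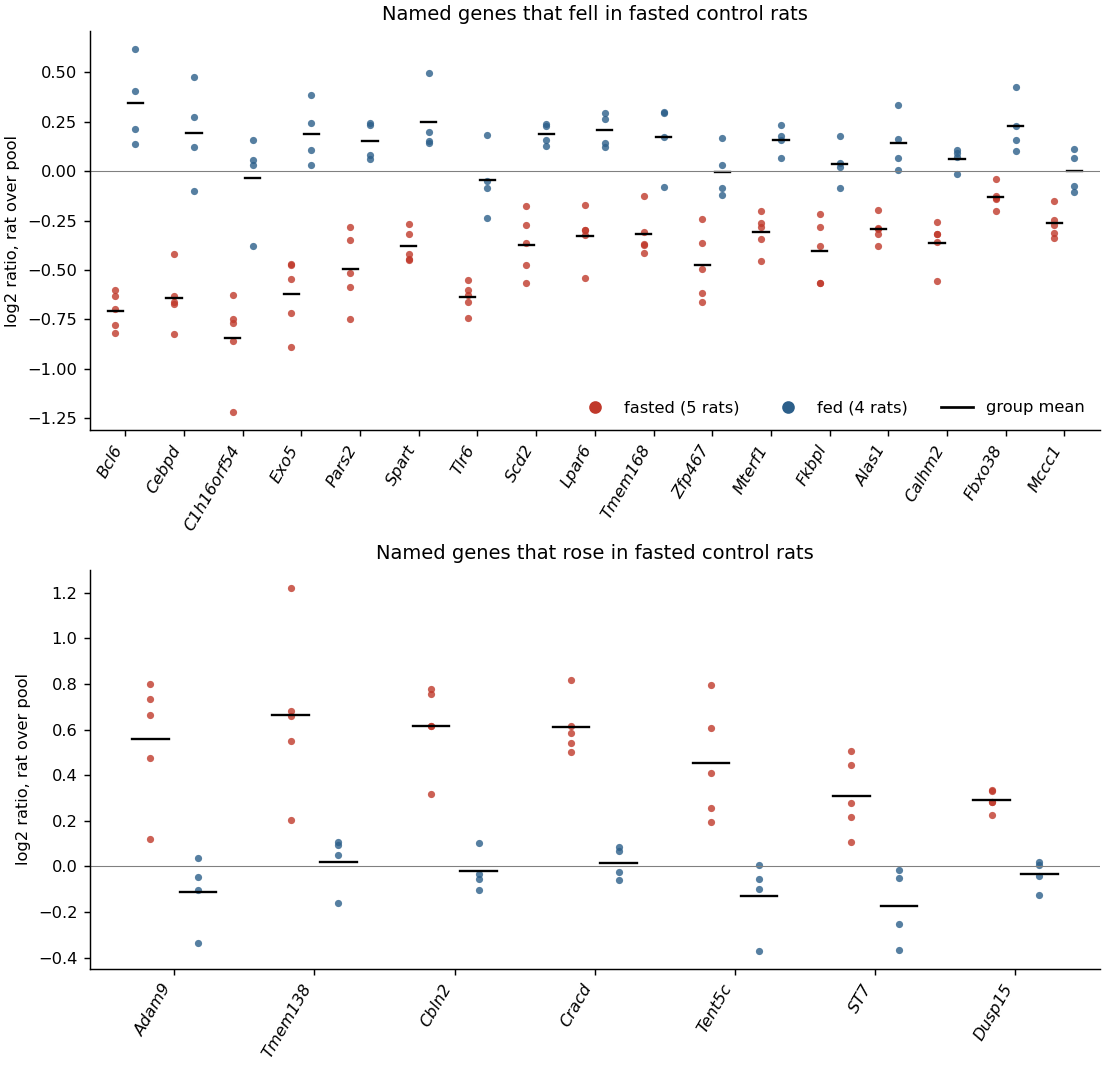
Log2 ratios of rat over pool for the 17 named genes that fell and the 7 that rose; each point is 1 rat, fasted rats (5) on the left and fed rats (4) on the right of each gene, and black bars are group means. In all 24 genes the fasted and the fed rats do not overlap, and Bcl6 shows the widest distance between means among the falls, at -1.05.

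Scd2 stood out among the lipid genes. Its log2 ratios were -0.48, -0.36, -0.18, -0.57 and -0.27 in fasted rats, against 0.23, 0.13, 0.16 and 0.24 in fed rats. All fasted rats were below the pool and all fed rats above it. The change was -0.56 ± 0.11 (adjusted p = 0.0446), and 2 other Scd2 probes changed by -0.21 and -0.17. Lpar6, a receptor for lysophosphatidic acid, fell by 0.53 ± 0.10 on the log2 scale (adjusted p = 0.0344), and Spart, whose protein spartin sits on lipid droplets and endosomes, fell by 0.63 ± 0.10 (adjusted p = 0.00731).

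Tlr6 had log2 ratios of -0.60, -0.66, -0.55, -0.74 and -0.63 in fasted rats, against -0.09, 0.18, -0.05 and -0.24 in fed rats. The 5 fasted rats lay close together, and the change was -0.59 ± 0.11 (adjusted p = 0.0252). Of 15 measured genes of toll-like receptors and their signalling, Tlr6 was the called one, 12 had a change below 0 and the median change was -0.052. Tlr2, the partner with which TLR6 binds lipopeptides, had a change of -0.54 ± 0.19 (adjusted p = 0.235).

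Some called falls encode proteins known to act in mitochondria, grouped here after their values were seen and without a test. The share of such genes among all genes was not taken, so no excess is claimed. Alas1, the first enzyme of heme synthesis, had log2 ratios of -0.38, -0.19, -0.29, -0.32 and -0.29 in fasted rats, against 0.07, 0.16, 0.33 and 0.01 in fed rats, a change of -0.44 ± 0.08 (adjusted p = 0.0165). Pars2, the prolyl-tRNA synthetase of mitochondria, fell by 0.65 ± 0.14 (adjusted p = 0.0446), and Mterf1, which ends transcription on mitochondrial DNA, fell by 0.47 ± 0.09 (adjusted p = 0.0404). Mccc1, a subunit of the carboxylase that breaks down leucine, fell by 0.26 ± 0.06 (adjusted p = 0.0472), the smallest fall among called genes. The 31 measured nuclear-encoded respiratory chain subunits had a median change of 0.065 with none called, and the 23 genes of the TCA cycle one of -0.0065 with none called.

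The other named falls were C1h16orf54 (-0.81), the DNA exonuclease Exo5 (-0.81), Tmem168 (-0.49), the zinc finger gene Zfp467 (-0.47), Fkbpl, a relative of the FK506-binding proteins (-0.44), the channel gene Calhm2 (-0.43) and Fbxo38 (-0.36), part of a ubiquitin ligase that targets the T cell receptor PD-1. C1h16orf54 was measured at -0.77, -0.63, -0.86, -0.75 and -1.22 in fasted rats, against 0.06, 0.16, 0.03 and -0.38 in fed rats. Fed rat 13 was lowest of the fed rats there. Of the 6 called falls with more than 1 probe, the other probes had the same sign in all 6, with Zfp467 at -0.073 the weakest.

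The falls were brighter than the rises in their medians, with exceptions such as the rise Tent5c, at 3345 units in fasted and 2108 units in fed rats, and the fall Calhm2, at 595 units in fasted and 861 units in fed rats. The mean Cy5 intensity of the 25 falls had a median of 3974 units in fasted and 5245 units in fed rats, and that of the 18 rises a median of 268.3 units in fasted and 174.7 units in fed rats. Of the falls, 24 were well above background on all 9 arrays, and of the rises 17. No called gene was below background throughout either group, and none had a saturated spot. The offset of 50 units added at background correction draws the ratios of dim genes towards 0.

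Dusp15 had the smallest adjusted p of all genes with a symbol. Among rises without a symbol the adjusted p went down to 0.00077 (limma). The log2 ratios of Dusp15 were 0.34, 0.28, 0.33, 0.28 and 0.22 in fasted rats, against -0.12, 0.02, -0.04 and 0.01 in fed rats. The spread within either group was small beside the change of 0.33 ± 0.05 (adjusted p = 0.00366), a 1.25-fold rise. Cracd, a regulator of actin filament capping, was at 0.59, 0.82, 0.62, 0.54 and 0.50 in fasted rats, against -0.06, 0.07, -0.02 and 0.08 in fed rats (change 0.59 ± 0.11, adjusted p = 0.0155). Its lowest fasted rat was well above its highest fed rat.

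Cbln2, known as an organiser of synapses in the brain, was at 0.62, 0.78, 0.32, 0.76 and 0.62 in fasted rats, against -0.03, 0.10, -0.10 and -0.06 in fed rats. The change was 0.64 ± 0.14 (adjusted p = 0.0446). Adam9 was at 0.12, 0.73, 0.48, 0.66 and 0.80 in fasted rats, against -0.34, 0.04, -0.04 and -0.10 in fed rats, a change of 0.67 ± 0.13 (adjusted p = 0.0404), and another Adam9 probe changed by 0.24. Fasted rat 2 came nearest to the fed rats for Adam9 and, at 0.20, for Tmem138, a membrane protein of cilia, whose change was 0.64 ± 0.13 (adjusted p = 0.0404).

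Tent5c, known from plasma cells for stabilising immunoglobulin transcripts, was at 0.79, 0.61, 0.26, 0.41 and 0.20 in fasted rats, against -0.05, 0.00, -0.37 and -0.10 in fed rats. Fasted rats 8 and 14 were the lowest of their group, and the change was 0.58 ± 0.12 (adjusted p = 0.0446). ST7 rose by 0.48 ± 0.10 (adjusted p = 0.0404).

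Promoters of called genes were read from RefSeq on the GRCr8 build, as the 250 bases before the gene's start. A promoter was matched for 15 of the 17 named falls and 5 of the 7 named rises. Both strands were searched for the FOXO core TGTTTAC, the E-box CACGTG, the cyclic AMP response element CRE TGACGTCA, the C/EBP motif TTGCNNAA, the STAT motif GAS TTCNNNGAA, the sterol element TCACNCCAC, the CCAAT box CCAAT, the GC box GGGCGG and the ETS motif CCGGAAG. Neighbouring GC boxes can overlap each other. The sequences shown are those of the largest fall, of the lipid desaturase Scd2 and of 2 falls that hold an ETS motif. The last is that of the named rise with the smallest adjusted p. Matches are in capitals, 5′ to 3′.
Bcl6, chr11:90358503-90358752, plus strand: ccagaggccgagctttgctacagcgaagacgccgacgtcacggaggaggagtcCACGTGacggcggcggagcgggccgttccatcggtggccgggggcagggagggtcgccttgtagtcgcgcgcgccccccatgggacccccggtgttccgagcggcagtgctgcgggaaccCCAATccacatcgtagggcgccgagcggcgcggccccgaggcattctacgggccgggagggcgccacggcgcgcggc
Scd2, chr1:253118127-253118376, plus strand: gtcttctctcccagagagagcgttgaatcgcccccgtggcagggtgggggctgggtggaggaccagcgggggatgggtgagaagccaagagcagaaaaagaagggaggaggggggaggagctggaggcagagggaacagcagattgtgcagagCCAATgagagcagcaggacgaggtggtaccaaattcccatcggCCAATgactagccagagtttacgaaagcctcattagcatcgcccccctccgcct
Spart, chr2:141442520-141442769, plus strand: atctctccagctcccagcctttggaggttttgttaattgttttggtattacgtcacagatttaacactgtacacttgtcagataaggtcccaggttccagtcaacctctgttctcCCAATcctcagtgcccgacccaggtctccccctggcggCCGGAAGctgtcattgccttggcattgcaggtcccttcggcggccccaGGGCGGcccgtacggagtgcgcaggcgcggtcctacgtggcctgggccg
Mterf1, chr4:31180882-31181131, plus strand: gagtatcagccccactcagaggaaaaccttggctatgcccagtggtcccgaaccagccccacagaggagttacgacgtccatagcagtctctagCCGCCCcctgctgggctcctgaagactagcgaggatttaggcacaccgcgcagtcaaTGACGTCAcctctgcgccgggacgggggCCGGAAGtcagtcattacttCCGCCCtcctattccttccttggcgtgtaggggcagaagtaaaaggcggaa
Dusp15, chr3:161879251-161879500, minus strand: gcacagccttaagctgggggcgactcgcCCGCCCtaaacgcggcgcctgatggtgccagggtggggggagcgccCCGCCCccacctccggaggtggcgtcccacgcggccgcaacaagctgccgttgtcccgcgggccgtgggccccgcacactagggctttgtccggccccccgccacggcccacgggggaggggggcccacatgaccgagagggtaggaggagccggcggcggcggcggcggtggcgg
Upstream of Bcl6 an E-box and a CCAAT box were found, and upstream of Scd2 a pair of CCAAT boxes. Spart held a CCAAT box, an ETS motif and a GC box, and Mterf1 a CRE, an ETS motif and a pair of GC boxes. Dusp15 held a pair of GC boxes.

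A CCAAT box was found in 8 of the 15 promoters of falls, against 34.3% of 27457 promoters of the table, and in 1 of the 5 of rises. The ETS motif was in 5 of the 15, against 7.74% of all promoters, and in 1 of the 5. The GC box was in 7 of the 15 and 3 of the 5, against 32.4%. The CRE was upstream of Mterf1 and Fkbpl (1.7% of all promoters), the E-box upstream of Bcl6 and ST7 (5.79%), the C/EBP motif upstream of Zfp467 (9.2%), GAS upstream of Alas1 (7.52%) and the sterol element upstream of Mccc1 (0.976%). The FOXO core was in 0 of the 15 and 0 of the 5, against 3.25%, which says only that these letters are not in these windows. These shares describe the called genes and were not tested. The percentages are over all promoters of the table, including genes not measured above background in these cells. They are therefore not the shares over the genes tested, and no excess is claimed.

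Just outside the threshold lay genes with an unadjusted p under 0.001. The lowest change among them was that of G0s2, which encodes an inhibitor of the lipase that opens stored triglyceride. It was measured at -1.09, -0.45, -1.48, -0.73 and -0.21 in fasted rats, against 0.16, 0.39, 0.24 and 0.39 in fed rats, and its change was -1.09 ± 0.29 (adjusted p = 0.0997). The fasted rats varied far more than the fed rats, although the groups did not overlap. Another G0s2 probe changed by -0.34, in the same direction and by less.

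Sirpa, an inhibitory receptor of myeloid cells, had a change of -0.68 ± 0.17 (adjusted p = 0.094) and Mefv, which encodes the inflammasome protein pyrin, one of -0.69 ± 0.17 (adjusted p = 0.0812). Mettl7a (-0.86), Tmem204 (-0.80), the glycosyltransferase Gcnt2 (-0.75), the growth factor Tgfa (-0.72) and the enolase Eno3 (-0.69) were also among the lowest changes, with adjusted p between 0.0526 and 0.103. Another Mettl7a probe changed by only -0.17. Groups overlapped for Gcnt2 and Mefv and were separate for G0s2, Id3, Sirpa, Mettl7a, Tmem204, Tgfa and Eno3.

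Among genes with a symbol and an unadjusted p under 0.001, the 10 highest changes short of the threshold were those of Rasgrp3 (0.88), an activator of Ras, Kalrn (0.83), Trpc6 (0.78), Dusp5 (0.77), Zfp296 (0.74), P2ry1 (0.62), Pear1 (0.59), Crip2 (0.58), Napa (0.58) and Nbea (0.56). Some are known in platelets, P2ry1 as a receptor for ADP, Pear1 as a receptor of aggregation and Trpc6 as a cation channel. Trpc6 was at 0.97, 1.20, 0.79, 0.60 and 0.55 in fasted rats, against -0.18, 0.23, -0.04 and 0.13 in fed rats. Pear1 was at 0.59, 0.39, 0.43, 0.25 and -0.08 in fasted rats, against -0.41, -0.22, -0.26 and -0.19 in fed rats. Fed rats lay below every fasted rat in both genes. For Crip2, the value of fed rat 4 was left out as an outlier spot, and another probe changed by 0.23.

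Platelet RNA differed between arrays. The mean log2 ratio of 18 platelet and megakaryocyte markers was 0.54, 0.64, 0.57, 0.37 and 0.48 in fasted rats 2, 5, 8, 11 and 14, against -0.19, 0.74, -0.29 and 0.14 in fed rats 1, 4, 7 and 13. The 5 fasted rats were alike (0.52 ± 0.10, SD, n = 5) and the fed rats ranged widely (0.10 ± 0.46, SD, n = 4), with fed rat 4 above every fasted rat. Of the 18 markers, 17 had a change above 0, the median was 0.47 and none was called. Pf4, platelet factor 4, was at 1.17, 1.50, 1.86, 1.08 and 1.55 in fasted rats, against -0.17, 1.63, -0.32 and 0.85 in fed rats (change 0.93 ± 0.46, adjusted p = 0.433). Treml1, a receptor of platelet granules, had a change of 0.72 ± 0.41 (adjusted p = 0.533).

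Fed rat 4, the highest of the 9 arrays in platelet markers, was at -0.22 for Pear1, 0.07 for P2ry1 and 0.23 for Trpc6. It was the highest of the fed rats for P2ry1 and Trpc6, and not for Pear1. No fed rat overlapped the fasted rats in these 3 genes, so this rat had to lie below every fasted rat. For Pf4 (1.63) and Treml1 (0.99) fed rat 4 lay within the range of the fasted rats. After adjustment for the mean of the platelet markers, the 25 falls had changes from -1.09 to -0.22 and the 18 rises changes from 0.29 to 0.65, and 5 falls and 5 rises were still called. Bcl6 then changed by -1.09 (adjusted p = 0.008) and Dusp15 by 0.29 (adjusted p = 0.010). Cebpd, with a change of -0.89, then had an adjusted p of 0.081. Trpc6 then changed by 0.55, P2ry1 by 0.51 and Pear1 by 0.46, against 0.78, 0.62 and 0.59 before adjustment. The part of platelet RNA in these 3 genes was not tested further.

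**Figure D2:**
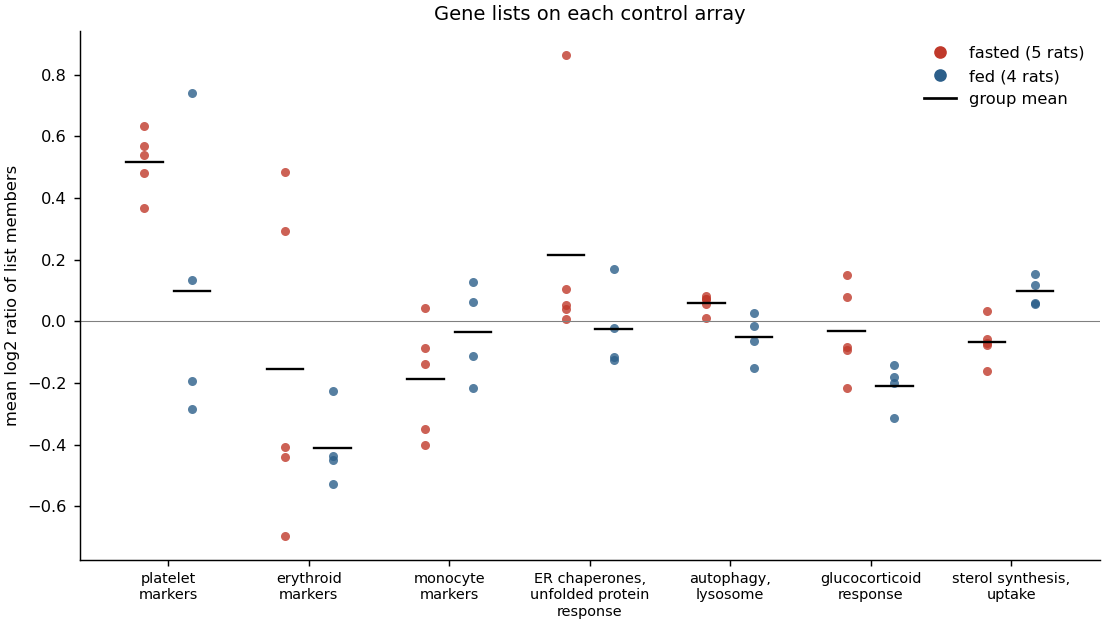
Mean log2 ratio over the members of 7 gene lists; each point is 1 array, fasted rats (5) left of fed rats (4), with black bars at group means. Fasted rat 2 stands alone at 0.86 for ER chaperones, fed rat 4 is the highest array for platelet markers at 0.74, and sterol synthesis is the 1 of these 7 lists whose groups do not overlap. The 7 were picked from 38 lists, and insulin and FOXO genes, not drawn here, also had groups without overlap.

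Sterol synthesis is turned down in the liver by fasting, and genes of sterol synthesis and uptake were described as a list. That list was chosen with earlier results of these data known and is not independent evidence of its direction. Over the 27 measured members the mean log2 ratio was -0.08, -0.06, -0.16, 0.04 and -0.07 in fasted rats, against 0.15, 0.06, 0.12 and 0.06 in fed rats. The fed arrays all lay above the fasted arrays, with fasted rat 11 just below fed rat 4. None of the 27 was called, 21 had a change below 0 and the median change was -0.15. The median was below 0 under every scaling tried, from -0.10 with median centring to -0.21 with Cy5 alone. All scalings use the same arrays, so they are no independent check. Msmo1, a demethylating oxidase of the pathway, was at -0.49, -0.47, -0.38, -0.16 and -0.57 in fasted rats, against 0.18, 0.12, 0.25 and 0.15 in fed rats (change -0.59 ± 0.14, adjusted p = 0.0606). Acat2, which makes acetoacetyl-CoA for the pathway, had a change of -0.45 ± 0.15 (adjusted p = 0.186).

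The factors that switch these genes on were measured too. Srebf1, the regulator of fatty acid synthesis, was at 0.02, -0.08, -0.02, 0.03 and -0.19 in fasted rats, against 0.18, 0.25, 0.82 and 0.30 in fed rats (change -0.44 ± 0.12, adjusted p = 0.100). The groups did not overlap, and fed rat 7 was the highest. The 2 other probes of Srebf1 disagreed, at -0.40 and 0.03. Srebf2, the regulator of sterol synthesis, had a change of -0.28 ± 0.11 (adjusted p = 0.31) and Fasn, fatty acid synthase, one of -0.25 ± 0.08 (adjusted p = 0.193). Scd had a change of -0.30 ± 0.15 (adjusted p = 0.46). Of 25 measured genes of fatty acid and triglyceride synthesis, 1 was called, Scd2, and the median change was -0.043, with Fads1, a desaturase of polyunsaturated fatty acids, at 0.72 ± 0.26 (adjusted p = 0.238). Scarb1, a lipoprotein receptor, had a change of -0.45 ± 0.14 (adjusted p = 0.168).

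Fat burning is governed by the PPAR receptors and by entry of fatty acids into mitochondria. Cpt1a, the enzyme of that entry, was at -0.03, -0.08, -0.02, -0.08 and -0.18 in fasted rats, against -0.35, -0.24, -0.52 and -0.54 in fed rats. All fasted rats were above all fed rats, with a change of 0.33 ± 0.08 (adjusted p = 0.0701). Slc25a20, the carrier that works beside it, had a change of 0.32 ± 0.10 (adjusted p = 0.163). None of 24 genes of fatty acid oxidation was called, and their median change was 0.042. Ppara, at the edge of background, had a change of 0.02 ± 0.03 (adjusted p = 0.875), and Pparg one of -0.50 ± 0.13 (adjusted p = 0.0862) with separate groups. Pdk4, a usual marker of fasting in muscle and liver, was not above background often enough to be tested.

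Slc27a2, a fatty acid transporter and acyl-CoA synthetase, varied widely between rats of the same group. It was at -0.15, -4.77, 0.03, -0.61 and 1.61 in fasted rats, against -0.32, -4.14, -4.76 and -4.85 in fed rats. Fasted rat 5 shared the low level of fed rats 4, 7 and 13, and fed rat 1 the high level of the other fasted rats. The change of 2.74 ± 1.41 was not called (adjusted p = 0.469), and another probe gave 1.86.

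Glucocorticoids rise in a fast, and genes that respond to them were described as a list. This list, too, was chosen with earlier results of these data known and is not independent evidence of its direction. Of 21 measured members, 14 had a change above 0, the median was 0.13 and none was called. Tsc22d1, which platelets also carry, had a change of 0.79 ± 0.37 (adjusted p = 0.399). After adjustment for the mean of the platelet markers it changed by 0.23 (adjusted p = 0.70, limma). Klf9 was at -0.33, -0.27, 0.52, -0.11 and 0.31 in fasted rats, against -0.54, -0.92, -0.28 and -0.52 in fed rats (change 0.59 ± 0.20, adjusted p = 0.198). Fasted rats 8 and 14 were the highest and the groups overlapped. Per1 (0.45 ± 0.19), Sgk1 (0.56 ± 0.23) and Txnip (0.61 ± 0.18), an inhibitor of thioredoxin that high glucose induces, had adjusted p of 0.345, 0.334 and 0.146. Cxcr4, which keeps lymphocytes in the bone marrow, had a change of 0.46 ± 0.23 (adjusted p = 0.444) with separate groups. The receptor gene Nr3c1 had a change of -0.01 ± 0.09 (adjusted p = 0.971).

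Among insulin and FOXO genes, 15 of 21 had a change above 0, with a median of 0.044 and none called. The mean over the list was 0.05, 0.06, 0.04, 0.06 and 0.01 in fasted rats, against -0.04, -0.02, -0.02 and -0.03 in fed rats. Every fasted rat lay above every fed rat. Irs2, an insulin signalling adaptor, had a change of 0.40 ± 0.13 (adjusted p = 0.202) and Trib2 one of 0.52 ± 0.17 (adjusted p = 0.205). The insulin receptor Insr (-0.06 ± 0.07), the leptin receptor Lepr (0.01 ± 0.04) and Ucp2 (0.00 ± 0.10) had adjusted p of 0.80, 0.975 and 0.999, and the probes of Insr and Lepr were near background.

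ER chaperones and the unfolded protein response were higher in 1 rat. The mean over 20 members was 0.86, 0.05, 0.10, 0.01 and 0.04 in fasted rats, against 0.17, -0.02, -0.12 and -0.13 in fed rats. The median change was 0.24 with 19 of 20 above 0 and none called, and without fasted rat 2 it was 0.05. Plasma cell markers (7 measured) stood at 2.03 in the same rat, against -0.66 to 0.22 in the other fasted rats and -0.47 to 0.58 in fed rats, and their part in the ER genes was not tested. Herpud1, of ER-associated degradation, had a change of 0.45 ± 0.12 (adjusted p = 0.104) and Dnajb9, an ER co-chaperone, one of 0.42 ± 0.11 (adjusted p = 0.103). Irf4, a factor of plasma cells, was at 1.60 in fasted rat 2 and between -0.16 and 0.06 in the other fasted rats, against -0.18 to 0.25 in fed rats. Its change of 0.30 ± 0.22 was not called (adjusted p = 0.658), and without fasted rat 2 it was -0.030.

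Of 29 genes of autophagy and the lysosome, 22 had a change above 0, the median was 0.12 and none was called. Atg12, a ubiquitin-like protein of the autophagosome, was at 0.38, 0.22, 0.46, 0.34 and 0.58 in fasted rats, against -0.05, 0.09, -0.37 and 0.09 in fed rats. Fasted rats lay above fed rats without overlap, with a change of 0.46 ± 0.10 (adjusted p = 0.0526). The lysosomal protease Ctsd had a change of 0.43 ± 0.19 (adjusted p = 0.373). Without fed rat 7 the median of the list was 0.05. Atf4, the factor of the amino acid response, had a change of 0.33 ± 0.10 (adjusted p = 0.150), and Nfe2l2, of the antioxidant response, one of -0.55 ± 0.14 (adjusted p = 0.0884).

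Monocyte markers had a median change of -0.14 over 19 measured members, 14 of them below 0 and none called. Their mean log2 ratio was -0.40, -0.35, 0.04, -0.14 and -0.09 in fasted rats, against 0.06, 0.13, -0.22 and -0.11 in fed rats. The groups overlapped, and fasted rats 2 and 5 were the lowest. Fcgr1a (-0.52 ± 0.22, adjusted p = 0.347) and Fcgr3a (-0.45 ± 0.34, adjusted p = 0.666), receptors for immunoglobulin G, had the lowest changes of the list. Without fasted rat 2 the list median was -0.06, and with fed rat 7 left out it was -0.26. Neutrophil markers (14 measured) had a median change of -0.074, 9 of them below 0 and none called. Their mean was between -0.31 and -0.07 in fasted rats, against -0.16 to 0.04 in fed rats. Several called falls, Cebpd and Tlr6 among them, are known to be expressed by monocytes. The part of monocyte or neutrophil number in the falls was not tested.

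T cell markers (18 measured) had a median change of -0.042, B cell markers (11) one of -0.049 and markers of natural killer and cytotoxic cells (15) one of 0.15, with none called in any of these lists. Erythroid markers (19 measured) had a median change of 0.28 with none called, and their mean was 0.48 and 0.29 in fasted rats 5 and 11 and between -0.69 and -0.41 in the other fasted rats, against -0.53 to -0.23 in fed rats. Ahsp, a chaperone of haemoglobin, had a change of 0.66 ± 0.45 (adjusted p = 0.622) and Slc4a1, the anion exchanger of red cells, one of 0.59 ± 0.49 (adjusted p = 0.708). Ccl2, a chemokine that attracts monocytes, was between 0.23 and 1.37 in fasted rats, against -0.25 to 0.09 in fed rats (change 0.96 ± 0.29, adjusted p = 0.160). The groups did not overlap. Klf4, of the immediate early genes, had a change of -0.61 ± 0.19 (adjusted p = 0.175), and Nfil3, a repressor tied to the clock, one of 0.55 ± 0.17 (adjusted p = 0.160).

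The same fast in cafeteria-fed rats gives other animals in which to read the genes called in control rats. There 206 of 24277 genes were called (0.849%). All 25 falls had a change below 0 in cafeteria rats too, with a median of -0.41 and 15 called, and 15 of the 18 rises had a change above 0, with a median of 0.08 and 0 called. Bcl6 changed by -1.05 ± 0.16 in control rats and by -0.68 ± 0.15 in cafeteria rats (adjusted p = 0.0327). Scd2 changed by -0.56 ± 0.11 in control rats and by -0.48 ± 0.11 in cafeteria rats (adjusted p = 0.0306). Lpar6 changed by -0.53 ± 0.10 in control rats and by -0.66 ± 0.10 in cafeteria rats (adjusted p = 0.00359). The fall of these genes was thus measured in separate sets of rats.

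Cebpd changed by -0.84 ± 0.17 in control rats and by -0.25 ± 0.16 in cafeteria rats (adjusted p = 0.679), and Alas1 by -0.44 ± 0.08 in control rats and by -0.18 ± 0.07 in cafeteria rats (adjusted p = 0.352). Among the rises, Dusp15 changed by 0.33 ± 0.05 in control rats and by 0.06 ± 0.05 in cafeteria rats, and Cbln2 by 0.64 ± 0.14 in control rats and by 0.03 ± 0.13 in cafeteria rats. Tent5c changed by 0.58 ± 0.12 in control rats and by 0.44 ± 0.11 in cafeteria rats (adjusted p = 0.062). The difference between diets was tested as an interaction over all genes, and 0 were called (limma), with 777 at an unadjusted p under 0.05 and a lowest adjusted p of 0.689. None of the called genes was therefore shown to respond differently between diets. An unadjusted p under 0.05 was reached there by 14 of the 18 rises and 2 of the 25 falls, with an adjusted p of 0.9998 for Dusp15. The genes were picked for their change in control rats, in a fit whose spread was estimated over all 6 groups, cafeteria arrays included. With only the 9 control arrays fitted, 19 of the 43 were still called.

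**Figure D3:**
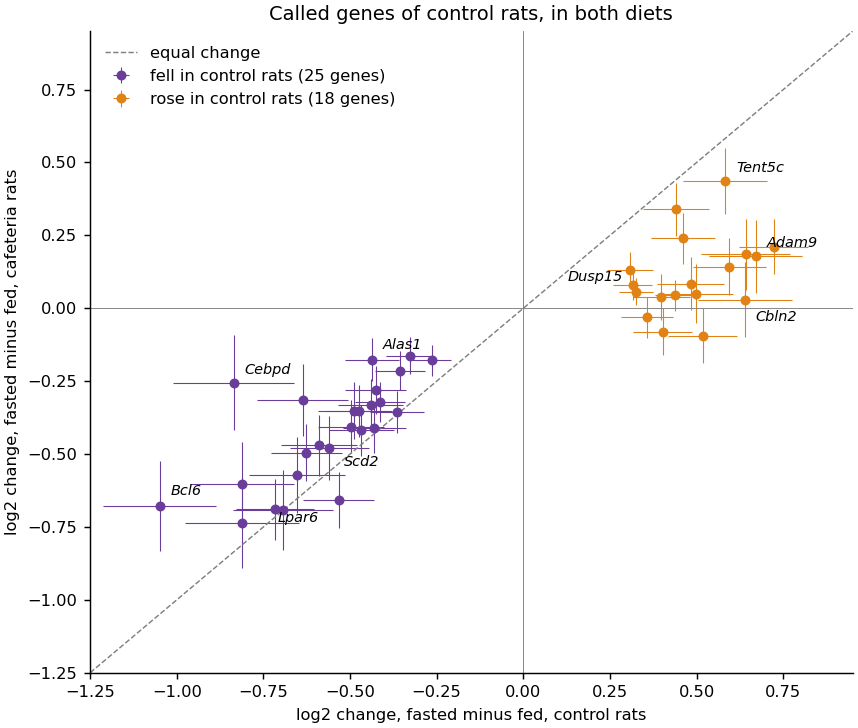
Log2 change of fasted minus fed rats in control rats (horizontal axis) against cafeteria rats (vertical axis) for the 43 genes called in control rats, with standard errors; the dashed line marks equal change. The 25 falls lie below 0 in both diets, and the 18 rises have a median of 0.08 in cafeteria rats, with Tent5c highest at 0.44.

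Fed, fasted and refed control rats form a series. Bcl6 averaged 0.34 ± 0.21 in fed (SD, n = 4), -0.71 ± 0.09 in fasted (SD, n = 5) and 0.17 ± 0.34 in refed control rats (SD, n = 5). Dusp15 averaged -0.03 ± 0.07 in fed (SD, n = 4), 0.29 ± 0.05 in fasted (SD, n = 5) and -0.04 ± 0.05 in refed control rats (SD, n = 5). For each of the 43 genes the mean of refed rats lay nearer to that of fed rats than to that of fasted rats, at a median distance of 0.03 from the fed mean for the falls and 0.10 for the rises. Both comparisons share the fasted arrays, so the return is no independent check of the change. The mean of the platelet markers was -1.06 to -0.24 on refed control arrays, against 0.37 to 0.64 on fasted arrays. The part of platelet RNA in the return was not tested. G0s2 averaged 0.29 ± 0.11 in fed (SD, n = 4), -0.79 ± 0.51 in fasted (SD, n = 5) and -0.36 ± 0.68 in refed control rats (SD, n = 5), with refed rats nearer to the fasted ones.

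**Figure D4:**
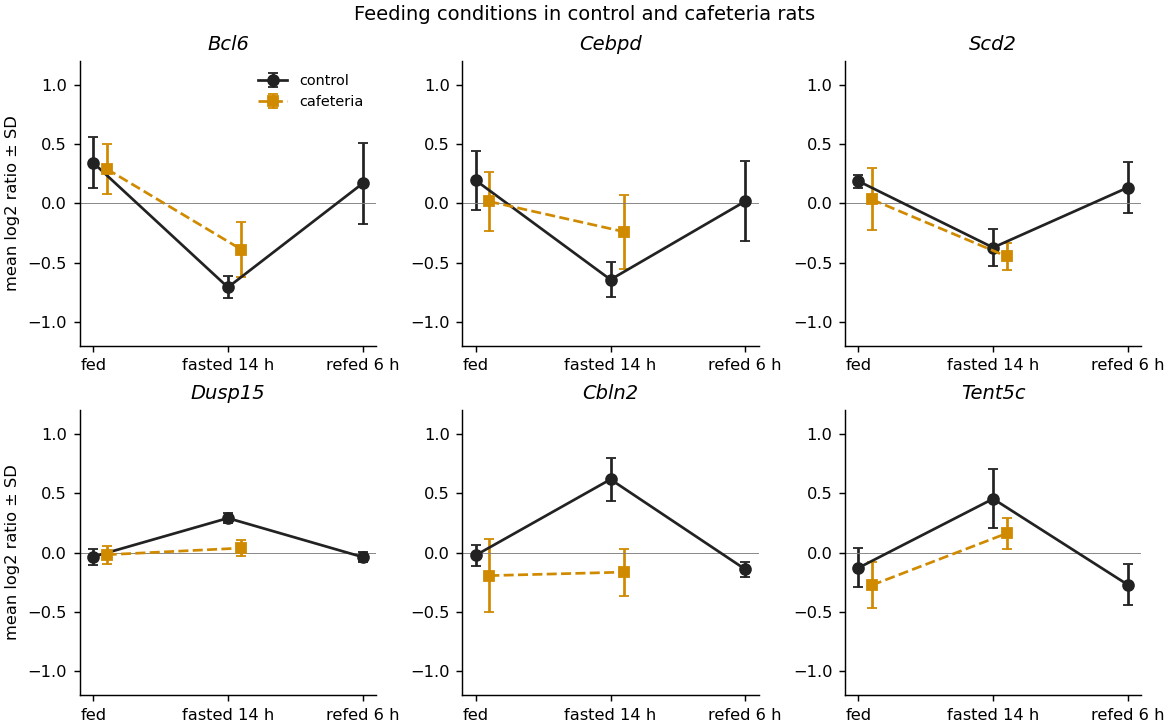
Mean log2 ratio of rat over pool with SD for 6 called genes, in control rats (circles, solid line; fed n = 4, fasted and refed n = 5) and fed and fasted cafeteria rats (squares, dashed line; n = 5 each). Refed control rats lie nearer to the fed than to the fasted mean in all 6 genes, and for Cbln2 the fasted mean is 0.62 in control and -0.16 in cafeteria rats.

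The arrays lay on 8 slides. Of the 9 control arrays, slide 4 held fasted rat 5 and fed rat 1, and slide 6 held fasted rat 8 and fed rat 13. The difference within them, 1 rat against 1 rat, had a median of -0.43 and -0.41 for the falls and of 0.62 and 0.43 for the rises. The genes were picked on these same arrays, so the size of differences within slides or runs is no independent check. The image software was run on the arrays in 2 runs, of which run 1 held 4 fasted and 2 fed arrays and run 2 held 1 fasted and 2 fed arrays. The difference within a run had a median of -0.46 in run 1 and -0.66 in run 2 for the falls and of 0.53 and 0.43 for the rises. With slide as a block, 16 genes were called (12 rises, 4 falls), of which 9 were among the 43, and Bcl6 (adjusted p = 0.0136) and Dusp15 (adjusted p = 0.0147) were still called. With the software run as a block, 49 were called, 38 of them among the 43.

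The number of calls depended on the values used and on single arrays. The processed signals of the scanner software gave 16 calls, all falls, median centring 2, both rises, Cy5 alone 3 falls and the authors' deposited values 1 fall. Of the 43 genes, all that could be tested kept their direction under each of these, 38 of them in the authors' table, where none was called. Without fasted rats 2, 5, 8, 11 and 14 in turn, 15, 81, 15, 30 and 14 genes were called, and without fed rats 1, 4, 7 and 13 in turn, 7, 6, 8 and 21. Since the groups do not overlap in any of the 43 genes, leaving out an array or splitting by slide or run could not turn a sign, and only the sizes and the calls could move.

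**Figure D5:**
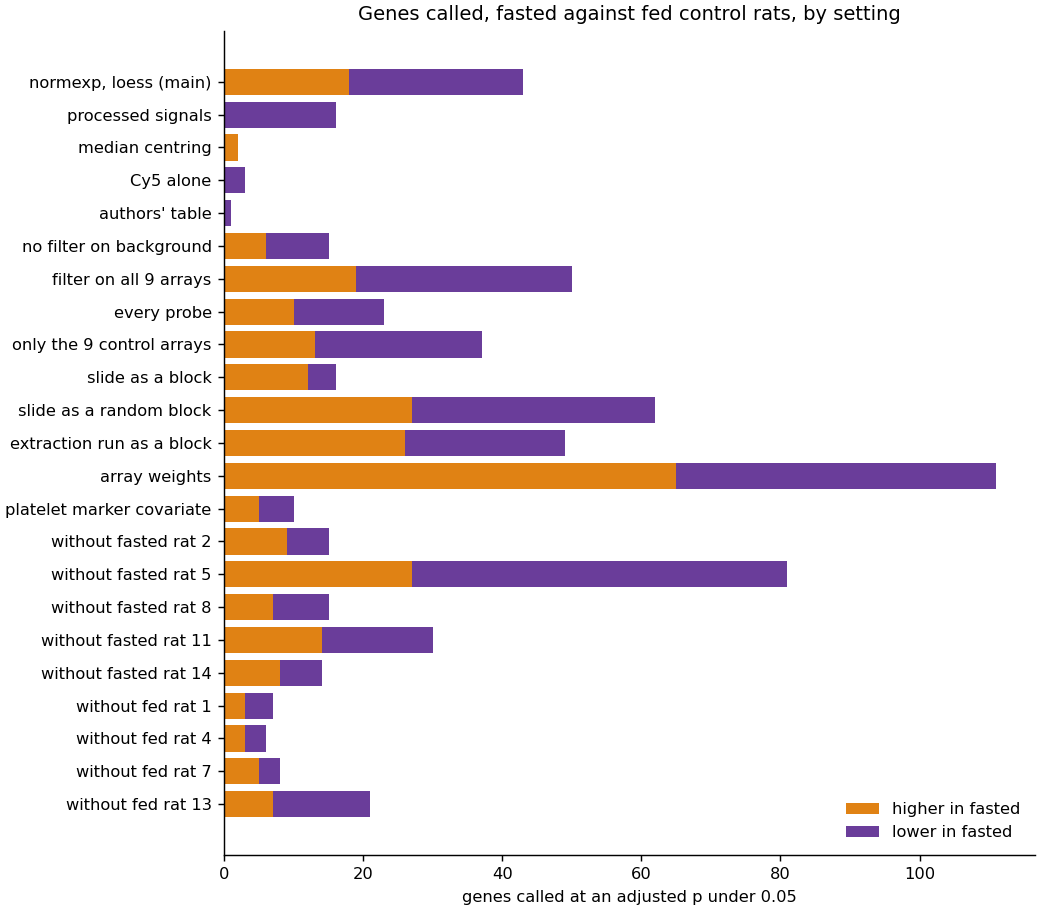
Number of genes called at an adjusted p under 0.05 for fasted against fed control rats under each way of processing, with genes higher in fasted rats and genes lower in fasted rats stacked. Counts range from 1 with the authors' table to 111 with array weights, around the 43 of the values used in the text.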

How the data were processed

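RNA of blood mononuclear cells from 29 rats was hybridised to Agilent arrays, 1 rat per array in Cy5 against a Cy3 pool. Per the file headers, the deposited spot intensity values are mean signals and local backgrounds read by Agilent Feature Extraction 9.5.1.1, beside processed signals that the software had background-subtracted and dye-normalized. The authors' deposited table holds log2 normalized Cy5 signals, and how it was normalized is not given in the sources used here. Its slope against the log2 scanner signal was 0.985 to 1.02 per array.

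From the mean signals, normexp correction with an offset of 50 and loess within each array gave log2 ratios, with control spots at weight 0 and 526 outlier values left out (limma 3.58.1, R 4.3.3; plots with matplotlib 3.10.9). Probes with Cy5 well above background on at least 4 arrays were kept, and the brightest probe stood for each gene. All 6 groups entered 1 limma fit without covariates, and p-values were adjusted by Benjamini-Hochberg over 24277 genes, with calls at an adjusted p under 0.05. The fit was tested on simulated data whose noise was independent between genes and arrays. That test does not cover differences of slide, software run or platelet RNA that many genes share. The number of arrays, 5 fasted and 4 fed, limits the precision.

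Symbols came from the RefSeq table of GRCr8, which named 19525 probes; 148 probes were set aside, and they and 1 further gene are not reported here. The text names every called gene with a symbol, the 10 highest and 10 lowest changes with an unadjusted p under 0.001 that were not called, genes of a chosen set, and members of 38 gene lists. The genes and lists were chosen with earlier results of these data known. Alternatives were other background corrections, scalings and filters, slide or software run as a block, array weights, a platelet covariate and each array left out.

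Rat numbers recur in the control and cafeteria groups. The correlation of same-numbered deviations from the group means was -0.15 to 0.21, so the numbers were not taken to pair the rats.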

Additional observations from a re-analysis of the deposited data

Results flagged for a closer look

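Of 174 groups of 4 or 5 rats checked for 87 genes, 8 held a rat set apart from the others of its group by Dixon's limit. Chance passes that limit in about 1 of 20 groups, so the 8 are no more than chance gives. Slc27a2 was at -0.32 in fed rat 1, against -4.85 to -4.14 in the other fed rats. Irf4 was at 1.60 in fasted rat 2, against -0.16 to 0.06 in the other fasted rats, and Slc25a20 at 0.43 in the same rat, against -0.08 to 0.02. Insr was at 0.22 in fasted rat 5, against -0.09 to -0.00 in the other fasted rats, near background. Fads1 was at 0.14 in fasted rat 14, against 0.53 to 0.68 in the other fasted rats. Fed rat 7 was apart for Tgfa, at 0.81 against 0.05 to 0.14 in the other fed rats, and for Spart, at 0.50 against 0.14 to 0.20. Eno3 was at -0.20 in fed rat 4, against 0.09 to 0.14 in the other fed rats. Spart was the 1 called gene among them.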

How the results depend on the processing

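The 43 calls became 16 with processed signals (0 rises, 16 falls), 2 with median centring (2 rises, 0 falls), 3 with Cy5 alone (0 rises, 3 falls), 1 in the authors' table (0 rises, 1 fall), 15 without the filter on background (6 rises, 9 falls), 23 over every probe (10 rises, 13 falls), 16 with slide as a block (4 falls), 111 with array weights (65 rises, 46 falls) and 10 with the platelet covariate (5 rises, 5 falls). Leaving out 1 array gave 6 to 81 calls, 3 to 27 rises and 3 to 54 falls. The cause of these shifts was not tested. All 43 genes, or those of them tested, kept their sign under the other scalings and in the authors' table. The interaction with diet had 0 calls in each alternative run. No paired analysis was possible because fasted and fed rats of a diet share no rat numbers. With the rat number as a replicate block, the interaction again had 0 calls, with 645 genes at an unadjusted p under 0.05.

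Ppara, Ucp2, Lepr and Nr3c1, with changes near 0, and Irf4, with a change of 0.30, turned sign under some settings. With median centring Ppara was at -0.080, Ucp2 at 0.030 and Lepr at -0.094, and with Cy5 alone Lepr was at -0.0081 and Nr3c1 at 0.024. Ucp2 was at 0.0050 in the authors' table. With slide as a block Ucp2 was at 0.0097 and Lepr at -0.015, and with software run as a block Ucp2 was at 0.013 and Lepr at -0.0067. With array weights Lepr was at -0.0045 and Nr3c1 at 0.049, and with the platelet covariate Nr3c1 was at 0.018. With each array left out in turn the ranges were Irf4 -0.030 to 0.41, Lepr -0.0065 to 0.019, Nr3c1 -0.054 to 0.052, Ucp2 -0.13 to 0.10. The signal of Insr, Lepr and Ppara lay near background, which limits what their values show.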
